A study of Mus musculus with 6 samples.

Results

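The transcripts of the mouse proteasome were measured in regulatory T (Treg) cells of the spleen. The genes were chosen by symbol alone: every gene in the deposited tables named Psma to Psmg followed by a number. This gave 49 of 14608 genes, and all 49 were among the 12233 genes that had a mean of at least 0.5 RPKM (reads scaled to gene length and library size) and were tested. They hold 14 standard subunits of the 20S core (7 alpha and 7 beta), 3 immunoproteasome subunits (Psmb8, Psmb9 and Psmb10), the thymus subunit Psmb11, 17 subunits of the 19S regulatory particle (6 ATPases and 11 others), 4 activator subunits, 1 inhibitor and 7 assembly chaperones. The other 2 match by name: Psmc3ip is a recombination factor and no subunit, and Psme2b is a copy of Psme2.

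The study sequenced total RNA of sorted CD4+YFP+ cells in 6 libraries, 2 from each of 3 genotypes. The groups are wild type (WT), heterozygous Cdc42 knockout (Cdc42+/-) and homozygous Cdc42 knockout (Cdc42-/-), and the design describes 2 mice of each. The labels name neither the driver of the deletion nor that of YFP, and give no age, sex or batch.

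The proteasome degrades proteins tagged with ubiquitin. Its 20S core is a barrel of alpha and beta rings whose beta1, beta2 and beta5 subunits (Psmb6, Psmb7 and Psmb5) cut the chain, and the 19S particle recognises the tagged protein, removes the ubiquitin and unfolds it with a ring of ATPases. In immune cells and under interferon, Psmb9, Psmb10 and Psmb8 can replace these catalytic subunits and form the immunoproteasome, which favours peptides suited to MHC class I. Lymphocytes express it constitutively, and proliferating cells use proteasomes to remove cyclins and other cell-cycle proteins.

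The libraries held 8556576 to 17796100 reads in genes, and replicates differed by more than counting error in every genotype: their mean chi-square over genes was 15.1 for WT, 6.37 for Cdc42+/- and 45.7 for Cdc42-/-. Cdc42 itself was at 166 and 161 RPKM in the WT libraries, 164 and 156 in the Cdc42+/- libraries and 122 and 173 in the Cdc42-/- libraries, and its adjusted p was 0.550 for Cdc42-/- against WT, so its level does not separate the labelled groups. Without Cdc42-/- replicate 2 that adjusted p was 0.0155. Treg markers were present in every library, with Foxp3 between 58.4 and 131 RPKM. Of 16 myeloid markers, all 16 had a higher mean in Cdc42-/- than in WT, and their summed level was 1969 RPKM in Cdc42-/- replicate 2 against 57.0 to 126 RPKM in the other 5 libraries. The Y-linked gene Ddx3y was at 37.7 and 42.4 RPKM in the WT libraries, where Xist was at most 1.13 RPKM. In both Cdc42+/- libraries and Cdc42-/- replicate 1, Xist was at 87.4 to 99.3 RPKM and Ddx3y at most 0.126 RPKM, while Cdc42-/- replicate 2 held both (21.2 and 27.5 RPKM). Apart from that library, sex and genotype cannot be told apart against WT. Counts of calls for Cdc42-/- are therefore also given without replicate 2, which leaves 1 Cdc42-/- library. In bulk RNA, fewer cells of a type and less RNA per cell cannot be told apart.

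Upstream sequences are shown for the members past the test's threshold in any comparison below, so that members that rose in the same libraries can be compared, and for Psmb10 as the immunoproteasome member, since the windows of Psmb8 and Psmb9 lie inside annotated exons. RefSeq windows ending at the annotated start (GRCm38.p6, 250 bases upstream, both strands searched) existed for 40 members, in 43 windows, and for 7 of the 12 members past the threshold. Of these, 5 had at least 180 bases upstream of every exon in GENCODE vM21, and only those bases are printed, 5′ to 3′ on the gene's own strand. In the order printed, they lie at chr2:61711444-61711693 (+), chr7:28050102-28050342 (-), chr7:29180702-29180923 (-), chr11:97703184-97703398 (+), chr14:54618023-54618245 (-) and chr8:105938445-105938642 (-). Capitals mark the antioxidant response element core TGACNNNGC (the site of the Nrf1 and Nrf2 factors), the CCAAT box (site of NF-Y) or the interferon response element (GAAA, any pair of bases, GAAA), on either strand.
Psmd14: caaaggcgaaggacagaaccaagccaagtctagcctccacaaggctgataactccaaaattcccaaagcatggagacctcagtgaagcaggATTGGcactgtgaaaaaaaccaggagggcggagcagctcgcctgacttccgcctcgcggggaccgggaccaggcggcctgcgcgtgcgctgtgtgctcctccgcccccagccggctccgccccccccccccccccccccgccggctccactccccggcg
Psmc4: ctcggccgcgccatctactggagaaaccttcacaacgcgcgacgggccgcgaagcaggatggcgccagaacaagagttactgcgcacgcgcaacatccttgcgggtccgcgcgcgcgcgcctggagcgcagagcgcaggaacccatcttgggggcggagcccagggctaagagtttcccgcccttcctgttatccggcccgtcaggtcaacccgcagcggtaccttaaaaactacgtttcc
Psmd8: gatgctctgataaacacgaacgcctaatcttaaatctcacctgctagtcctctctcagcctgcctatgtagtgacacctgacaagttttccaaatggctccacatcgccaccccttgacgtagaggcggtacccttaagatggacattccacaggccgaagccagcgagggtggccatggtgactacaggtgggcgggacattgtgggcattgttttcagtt
Psmb3: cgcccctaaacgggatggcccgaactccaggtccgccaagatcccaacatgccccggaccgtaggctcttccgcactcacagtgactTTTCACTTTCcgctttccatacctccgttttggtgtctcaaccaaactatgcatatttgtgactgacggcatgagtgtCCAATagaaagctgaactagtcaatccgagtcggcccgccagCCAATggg
Psmb5: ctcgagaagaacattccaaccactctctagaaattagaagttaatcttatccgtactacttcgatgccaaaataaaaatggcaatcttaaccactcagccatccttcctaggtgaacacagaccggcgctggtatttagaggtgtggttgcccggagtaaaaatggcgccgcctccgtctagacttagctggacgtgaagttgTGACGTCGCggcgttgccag
Psmb10: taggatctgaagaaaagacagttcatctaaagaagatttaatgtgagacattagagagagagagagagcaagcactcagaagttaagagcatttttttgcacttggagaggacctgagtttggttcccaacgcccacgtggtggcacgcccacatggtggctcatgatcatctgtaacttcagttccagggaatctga

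Psmb5 held 1 antioxidant response element core, 47 bases upstream of its RefSeq start. Psmb3 held 2 CCAAT boxes and an interferon element, and Psmd14 held 1 CCAAT box. The windows of Psmc4, Psmd8 and Psmb10 held none of these 3 motifs. Over the 27 windows of standard subunits, 14.8% held the antioxidant core against 10.2% of all 32851 windows in the table. The CCAAT box was in 37.0% against 33.8%, the interferon element in 7.41% against 2.98%, and the GC box GGGCGG (not in capitals) in 51.9% against 32.7%. Of the 3 immunoproteasome windows, 0 held the antioxidant core, 1 a CCAAT box (Psmb9), 0 the interferon element and 1 a GC box (Psmb9). All 250 bases of the Psmb8 and Psmb9 windows lie inside annotated exons, so for these genes the counts do not cover sequence upstream of every exon. These matches are letters in a window and say nothing of binding in these cells.

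In WT Treg cells the immunoproteasome subunits were the most abundant catalytic subunits. Mean levels per length were 338 RPKM for Psmb8, 185 RPKM for Psmb9 and 103 RPKM for Psmb10, against 49.6, 66.1 and 81.3 RPKM for their standard counterparts Psmb5, Psmb6 and Psmb7. The 31 standard subunits ran from 33.9 RPKM (Psmd1) to 154 RPKM (Psma2), with a median of 59.8 RPKM. Psme1, the alpha subunit of the interferon-inducible activator PA28, stood near Psmb8 at 314 RPKM, while the nuclear activator Psme4 (PA200) was at 18.6 RPKM. The 7 assembly chaperones lay between 7.33 RPKM (Psmd9) and 25.2 RPKM (Psmd5), below every standard subunit. Psmb11, which belongs to thymic epithelium, was at 0.488 and 0.303 RPKM in the WT libraries, 0.782 and 0.635 in the Cdc42+/- libraries and 0.745 and 0.825 in the Cdc42-/- libraries, from 11 to 51 reads a library.

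The members together held 0.451% and 0.473% of the reads in the WT libraries, 0.430% and 0.442% in Cdc42+/-, and 0.528% and 0.611% in Cdc42-/-. Both Cdc42-/- libraries were above all others, and both Cdc42+/- libraries were below both of WT. At least 395 reads lay behind each standard subunit in every library.

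The comparison of Cdc42-/- with WT asked how proteasome transcripts differ when both Cdc42 alleles are knocked out. Fitted levels of all 31 standard subunits were higher in Cdc42-/-, by a median of 0.42 on the log2(RPKM + 1) scale (all tested genes: 0.01). Of the 49 members, 7 rose and 1 fell past an adjusted p of 0.05 in limma, where 11.4% of all tested genes passed, 6.86% as higher and 4.57% as lower. An unadjusted p below 0.05 was found for 23 of 49 members, and for 29.3% of all tested genes. All 7 that rose belong to the 19S particle: Psmc3, Psmc4, Psmd1, Psmd3, Psmd7, Psmd8 and Psmd13. None of the 14 standard core subunits passed (5 had an unadjusted p below 0.05), but 3 of the 14 (Psma5, Psmb2 and Psmb3) did without Cdc42-/- replicate 2 (10.3% of all genes rose) and 12 of the 14 without replicate 1 (20.8%). None of the 3 immunoproteasome subunits passed, with or without either Cdc42-/- library (0 with an unadjusted p below 0.05 with all 6). In 23 of the 31 standard subunits both Cdc42-/- libraries were above both WT libraries, which held for 28.9% of all genes tested. The reverse, both below, held for 5 of 49 members and for 27.1% of all genes. The difference between the core and the 19S particle was not tested, and their medians were 0.37 and 0.44.

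**Figure D1:**
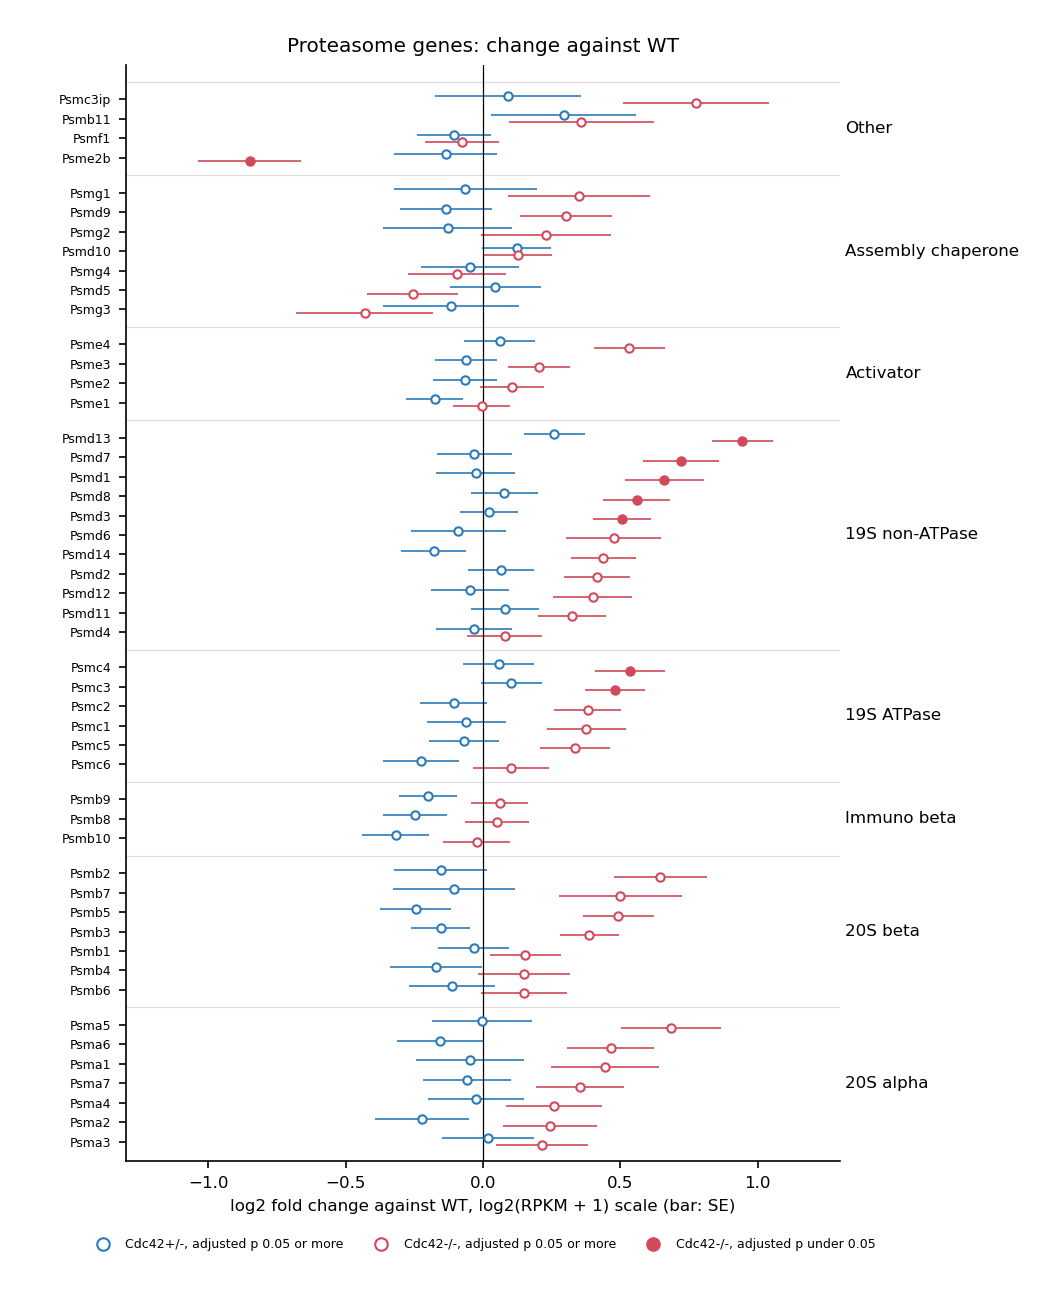
Log2 fold change against WT of each of the 49 genes on the log2(RPKM + 1) scale (x axis), ordered within groups by role (y axis), for Cdc42+/- (blue) and Cdc42-/- (red). Bars are limma's standard errors and filled points have an adjusted p under 0.05. All 31 standard 20S and 19S subunits lie right of 0 in Cdc42-/-, the 3 immunoproteasome subunits lie near 0 there, and all 49 Cdc42+/- points are open.

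Replicate 2 carried more of this difference than replicate 1. The median ratio of the 31 standard subunits to their WT mean was 0.991 and 1.01 in the WT libraries, 0.968 and 0.961 in Cdc42+/-, and 1.20 and 1.46 in Cdc42-/-. All 31 subunits were higher in Cdc42-/- replicate 2 than in replicate 1. Without replicate 2, the library with myeloid RNA, 11 members rose and 1 fell (10.3% of all genes rose), 10 of them standard subunits, and 27 of the 31 standard subunits had a higher fitted level, with a median of 0.27. Without replicate 1, 31 members rose and 1 fell (20.8% of all genes rose). Without either WT library 0 members passed, and without either Cdc42+/- library only Psmd13 did, where 2.11% to 4.57% of all genes passed. An unadjusted p below 0.05 was found for 15 to 19 members and for 18.4% to 21.9% of all genes in these 4 fits. Under upper-quartile scaling, 30 of the 31 subunits were higher, 5 rose, and the calls over all genes split into 731 higher and 754 lower, against 839 and 559.

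**Figure D2:**
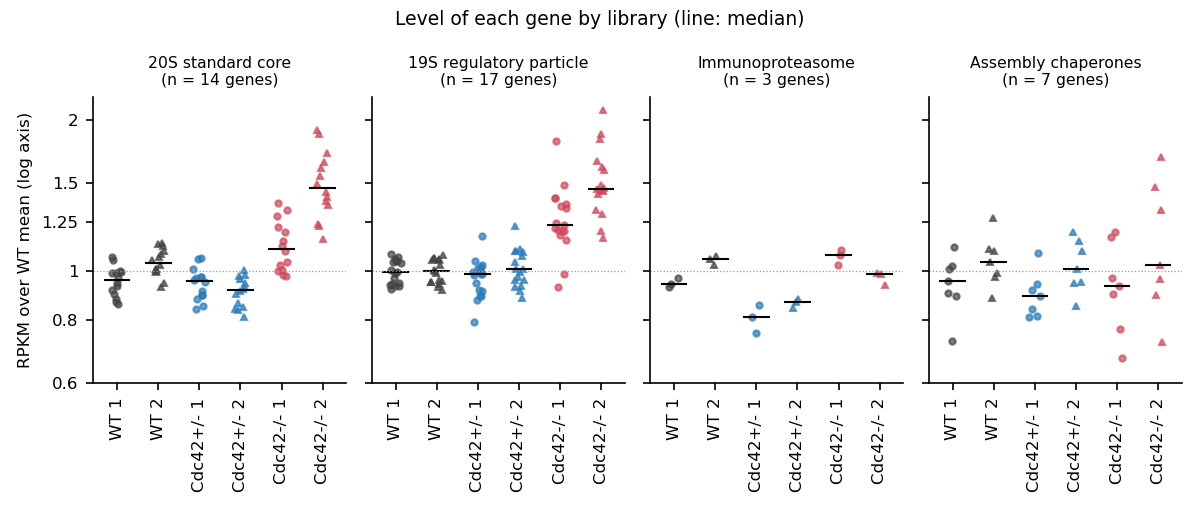
RPKM of each gene divided by its WT mean (log axis) in each of the 6 libraries, for 4 groups of genes. Points are genes, circles replicate 1 and triangles replicate 2, and lines are medians. In Cdc42-/- the 19S medians were 1.23 and 1.46 and the core medians 1.11 and 1.46, while the immunoproteasome medians were 1.08 and 0.988.

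Among the non-ATPase subunits of the 19S particle, Psmd13 changed most in Cdc42-/- against WT. This lid subunit (Rpn9; gene ID 23997, chr7:140881968-140898643 in GRCm38, plus strand) was at 38.9 and 38.3 RPKM in the WT libraries, 45.3 and 47.6 in the Cdc42+/- libraries and 70.1 and 80.8 in the Cdc42-/- libraries. The 3 genotypes did not overlap, and Cdc42+/- lay between the others. Its log2 fold change in Cdc42-/- against WT was 0.94 (SE 0.11, limma adjusted p 0.00539), a ratio of means of 1.95. In the authors' deposited table its log2 fold change was 0.92 with an adjusted p of 0.00383, and it is the only member past 0.05 there, where 8.66% of 14608 genes are (6.0% as higher). An exon of Psmd13 overlaps Sirt3 on the other strand, and the strand setting of the counting is not given in the sources used here. Sirt3, a mitochondrial deacetylase, was at 2.43 and 2.20 RPKM in the WT libraries and 3.19 and 5.80 in those of Cdc42-/-, far below Psmd13.

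Psmd7 (Rpn8; chr8:107580381-107588464) pairs with the deubiquitinase Psmd14 in the lid. It was at 36.8 and 34.1 RPKM in the WT libraries, 33.6 and 35.7 in the Cdc42+/- libraries and 52.6 and 66.2 in the Cdc42-/- libraries. WT and Cdc42+/- overlapped, and both Cdc42-/- libraries were above them (log2 fold change against WT 0.72, SE 0.14, adjusted p 0.0258). Psmd1 (Rpn2; chr1:86064387-86139151), a large scaffold of the base, was at 33.7 and 34.1 RPKM in the WT libraries, 33.5 and 33.1 in the Cdc42+/- libraries and 47.3 and 61.9 in the Cdc42-/- libraries. The first 4 libraries were nearly level, and the Cdc42-/- libraries stood above them and apart from each other (0.66, SE 0.14, adjusted p 0.0382).

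Psmd8 (Rpn12), a lid subunit, was at 62.5 and 57.1 RPKM in the WT libraries, 60.6 and 65.6 in the Cdc42+/- libraries and 81.5 and 96.1 in the Cdc42-/- libraries (log2 fold change against WT 0.56, SE 0.12, adjusted p 0.0384). Psmd3 (Rpn3), also of the lid, was at 47.5 and 42.2 RPKM in the WT libraries, 46.2 and 44.7 in the Cdc42+/- libraries and 62.6 and 65.3 in the Cdc42-/- libraries (0.50, SE 0.11, adjusted p 0.0341). For both genes, WT and Cdc42+/- overlapped and both Cdc42-/- libraries were highest. Psmd3 is the case where the Cdc42-/- replicates lay closest together among these 5. The ubiquitin receptor Psmd4 (Rpn10) was, with Psmc6, a member of the particle whose libraries overlapped, at 74.2 and 74.4 RPKM in the WT libraries and 69.1 and 89.1 in those of Cdc42-/- (0.08, adjusted p 0.737, and -0.10 without replicate 2).

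The 6 ATPases, which form the unfolding ring, had a median log2 difference of 0.38 from WT in Cdc42-/- (all genes: 0.01), and 2 rose, where 6.86% of all genes did. The count was 2 without Cdc42-/- replicate 2 (10.3% of all genes) and 5 without replicate 1 (20.8%). Psmc4 (Rpt3) was at 57.4 and 52.1 RPKM in the WT libraries, 54.1 and 59.9 in the Cdc42+/- libraries and 73.2 and 86.9 in the Cdc42-/- libraries (0.54, SE 0.13, adjusted p 0.0486). Psmc3 (Rpt5) was at 72.7 and 82.7 RPKM in the WT libraries, 81.4 and 85.4 in the Cdc42+/- libraries and 105 and 113 in the Cdc42-/- libraries (0.48, SE 0.11, adjusted p 0.0435). In both, the Cdc42-/- libraries were above the other 4. Psmc3 shares exons with Slc39a13 on the other strand, which went the other way, at 9.37 and 8.80 RPKM in the WT libraries and 5.76 and 6.44 in those of Cdc42-/-. Psmc6 (Rpt4) had the smallest difference, at 49.6 and 56.5 RPKM in the WT libraries, 42.1 and 48.6 in the Cdc42+/- libraries and 52.4 and 61.9 in the Cdc42-/- libraries (0.10, adjusted p 0.659, and -0.02 without Cdc42-/- replicate 2). Psmc2 (Rpt1) was at 47.2 and 52.8 RPKM in the WT libraries, 45.8 and 46.8 in the Cdc42+/- libraries and 60.1 and 71.0 in the Cdc42-/- libraries (0.38, adjusted p 0.10), with the Cdc42-/- libraries above the rest.

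Apart from Psmd13, these calls sat close to the threshold. Over 14 alternative analyses, Psmd13 lost its call in 2, Psmd1 and Psmd7 in 5, Psmc3, Psmd3 and Psmd8 in 7, and Psmc4 in 10, while their fold changes stayed positive in each. Without Cdc42-/- replicate 2 all 7 kept their calls, with log2 fold changes from 0.41 (Psmc4, adjusted p 0.0385) to 0.84 (Psmd13, adjusted p 0.0016). The activator Psme4 lay just outside, with an adjusted p of 0.0504, and passed in 5 of the 14.

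In the 20S core, the alpha subunits form the outer rings that gate entry and Psmb1 to Psmb4 the structural part of the inner rings. All 7 alpha subunits were higher in Cdc42-/- than in WT, with log2 differences of 0.21 (Psma3) to 0.68 (Psma5), and none passed, while 11.4% of all genes did. With Cdc42-/- replicate 2 left out, 1 of 7 (Psma5) rose, where 10.3% of all genes did, and Psma3 was at -0.02. All 7 rose without replicate 1, where 20.8% of all genes did. Psma5 was at 53.3 and 46.5 RPKM in the WT libraries, 53.1 and 46.4 in the Cdc42+/- libraries and 68.1 and 95.4 in the Cdc42-/- libraries (0.68, adjusted p 0.0628, and 0.44, adjusted p 0.0476, without replicate 2). Psmb2 was at 62.7 and 62.3 RPKM in the WT libraries, 55.0 and 57.2 in the Cdc42+/- libraries and 82.5 and 117 in the Cdc42-/- libraries (0.65, adjusted p 0.0616, and 0.40, adjusted p 0.0213, without replicate 2). In both genes the Cdc42-/- libraries were above the rest but lay far apart. Psmb1, at 140 and 126 RPKM in the WT libraries and 134 and 164 in those of Cdc42-/-, was among the 6 core subunits whose libraries overlapped between the genotypes. Psmb4 was at 125 and 159 RPKM in the WT libraries, 130 and 121 in the Cdc42+/- libraries and 139 and 176 in the Cdc42-/- libraries (0.15, adjusted p 0.593, and -0.02 without replicate 2), and WT overlapped with both other genotypes.

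The catalytic subunits are compared side by side, since each immunoproteasome subunit takes the place of a standard one. Psmb5 (beta5) was at 46.3 and 53.0 RPKM in the WT libraries, 41.7 and 41.5 in the Cdc42+/- libraries and 63.9 and 76.8 in the Cdc42-/- libraries. Its immunoproteasome counterpart Psmb8 was at 319 and 357 RPKM in the WT libraries, 275 and 294 in the Cdc42+/- libraries and 364 and 336 in the Cdc42-/- libraries. Psmb5 thus separated all 3 genotypes, while Psmb8 separated Cdc42+/- from the others and WT from Cdc42-/- not at all. Against WT, Cdc42-/- differed by 0.49 (SE 0.13, adjusted p 0.0623) for Psmb5 and by 0.05 (SE 0.12, adjusted p 0.795) for Psmb8.

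Psmb7 (beta2) was at 70.0 and 92.6 RPKM in the WT libraries, 79.3 and 70.4 in the Cdc42+/- libraries and 93.4 and 140 in the Cdc42-/- libraries, and Cdc42-/- replicate 2 stood apart (0.50, SE 0.22, adjusted p 0.201). Its counterpart Psmb10 was at 95.9 and 110 RPKM in the WT libraries, 77.7 and 87.3 in the Cdc42+/- libraries and 106 and 96.7 in the Cdc42-/- libraries (-0.02, SE 0.12, adjusted p 0.921). The Cdc42-/- values of Psmb10 lay within those of WT. Psmb6 (beta1) was at 57.4 and 74.7 RPKM in the WT libraries, 56.4 and 65.0 in the Cdc42+/- libraries and 69.0 and 76.6 in the Cdc42-/- libraries (0.15, SE 0.16, adjusted p 0.568). Psmb9, its counterpart, was at 180 and 190 RPKM in the WT libraries, 159 and 163 in the Cdc42+/- libraries and 203 and 183 in the Cdc42-/- libraries (0.06, SE 0.11, limma adjusted p 0.737). An exon of Psmb9 overlaps Tap1 on the other strand, so its reads can be shared with that gene. Psmb6 overlapped between WT and each of the other genotypes, and Psmb9 had both Cdc42+/- libraries below the other 4. Leaving out Cdc42-/- replicate 2 gave log2 differences from WT of 0.36 for Psmb5, 0.07 for Psmb6 and 0.21 for Psmb7, and of 0.11 for Psmb8, 0.14 for Psmb9 and 0.04 for Psmb10.

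**Figure D3:**
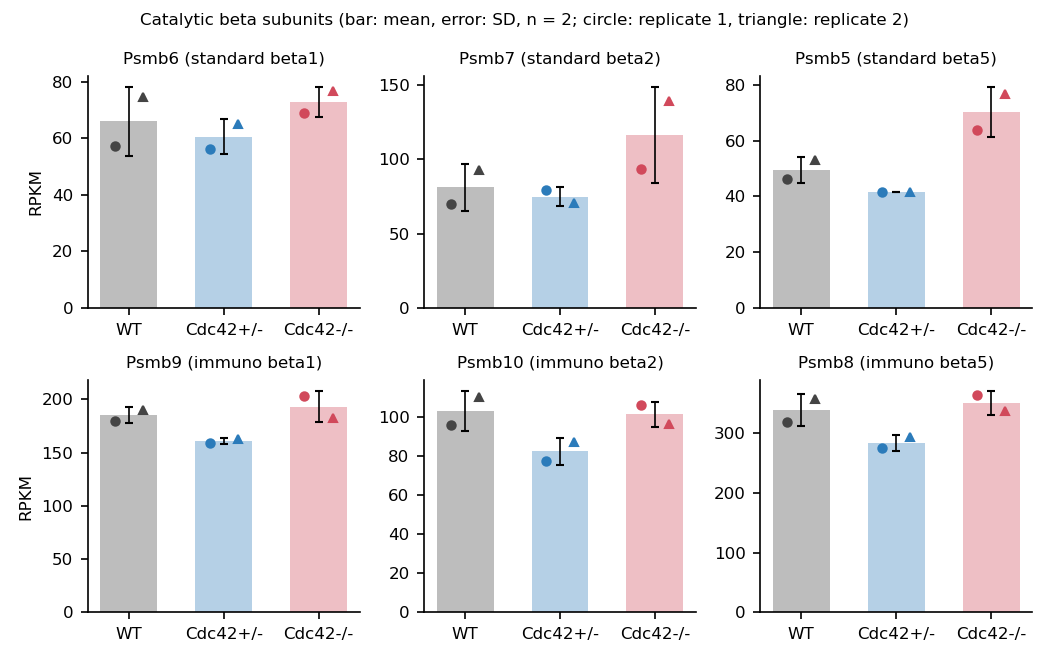
RPKM of the standard catalytic subunits (top) and their immunoproteasome counterparts (bottom) by genotype. Bars are means, error bars the SD of 2 libraries, circles replicate 1 and triangles replicate 2. Psmb5 was highest in Cdc42-/- (63.9 and 76.8), and Psmb8, Psmb9 and Psmb10 were lowest in Cdc42+/-.

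The median log2 difference of the 3 immunoproteasome subunits between Cdc42-/- and WT was 0.05 (all genes: 0.01). Its sign flipped under upper-quartile scaling (-0.03, all genes: -0.06) and without Cdc42-/- replicate 1 (-0.02, all genes: 0.02). The ratio of each pair within a library does not depend on the scaling of that library. Psmb8 to Psmb5 was 6.89 and 6.74 in the WT libraries, 6.58 and 7.07 in the Cdc42+/- libraries and 5.70 and 4.38 in the Cdc42-/- libraries. Both Cdc42-/- libraries were below all others, by a mean of -0.45 on the log2 scale against WT (exact two-sided permutation test, p 0.333, adjusted over 9 ratio comparisons 0.857). With 2 libraries against 2, 0.333 is the smallest p possible. Psmb10 to Psmb7 was 1.37 and 1.19 in the WT libraries, 0.979 and 1.24 in the Cdc42+/- libraries and 1.13 and 0.693 in the Cdc42-/- libraries. The Cdc42-/- libraries were below both of WT (-0.53, exact permutation p 0.333) but not below both of Cdc42+/-. Psmb9 to Psmb6 was 3.13 and 2.54 in the WT libraries, 2.81 and 2.51 in the Cdc42+/- libraries and 2.95 and 2.38 in the Cdc42-/- libraries, which overlap (-0.09, exact permutation p 0.667). Without Cdc42-/- replicate 2 the differences from WT were -0.26 for Psmb8 to Psmb5, -0.17 for Psmb10 to Psmb7 and 0.06 for Psmb9 to Psmb6.

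**Figure D4:**
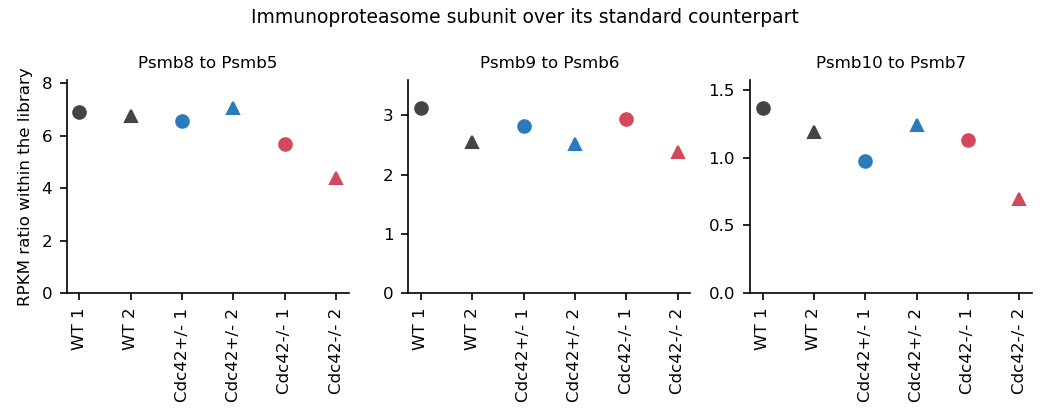
Ratio of the RPKM of each immunoproteasome subunit to that of its standard counterpart (y axis) in each of the 6 libraries (x axis). Circles are replicate 1 and triangles replicate 2. Psmb8 to Psmb5 is lowest in the Cdc42-/- libraries (5.70 and 4.38), and Psmb9 to Psmb6 overlaps between the genotypes.

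None of the 4 activator subunits, which open the core without ubiquitin, passed in Cdc42-/- against WT, while 11.4% of all genes did. With either Cdc42-/- library left out, 1 of 4 (Psme4) rose, where 10.3% (without replicate 2) and 20.8% (without replicate 1) of all genes did. Psme1 and Psme2 together form the PA28 cap and lay near WT: Psme1 was at 318 and 309 RPKM in the WT libraries, 265 and 291 in the Cdc42+/- libraries and 312 and 313 in the Cdc42-/- libraries (-0.00, adjusted p 0.981). Psme2 was at 181 and 202 RPKM in the WT libraries and 215 and 197 in those of Cdc42-/- (0.11, adjusted p 0.585, and 0.17 without replicate 2). Psme4 differed more, at 17.3 and 19.8 RPKM in the WT libraries, 20.8 and 18.0 in the Cdc42+/- libraries and 27.4 and 27.0 in the Cdc42-/- libraries. Its Cdc42-/- replicates were nearly equal and above the other 4 libraries (0.53, SE 0.13, adjusted p 0.0504, and 0.54, adjusted p 0.0389, without replicate 2). The inhibitor Psmf1 (PI31) was at 13.0 and 13.2 RPKM in the WT libraries, 11.2 and 13.0 in the Cdc42+/- libraries and 11.9 and 12.9 in the Cdc42-/- libraries (-0.08, adjusted p 0.735, and -0.13 without replicate 2).

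The assembly chaperones did not move as a group: 4 of 7 were higher and 3 lower in Cdc42-/- than in WT, with a median of 0.13 (-0.09 without Cdc42-/- replicate 2). None passed the threshold, while 11.4% of all genes did, and 0 reached an unadjusted p below 0.05 (29.3% of all genes). With Cdc42-/- replicate 1 left out, 2 of 7 (Psmg1 and Psmg2) rose, where 20.8% of all genes did, and with replicate 2 left out, 0 of 7 (10.3%). Psmg3, which helps to build the alpha ring, was at 10.7 and 18.8 RPKM in the WT libraries, 13.5 and 12.6 in the Cdc42+/- libraries and 9.92 and 10.7 in the Cdc42-/- libraries (-0.43, SE 0.25, adjusted p 0.299). Psmd5, a chaperone of the 19S base despite its name, was at 25.4 and 25.0 RPKM in the WT libraries, 22.5 and 30.1 in the Cdc42+/- libraries and 19.4 and 22.7 in the Cdc42-/- libraries (-0.26, adjusted p 0.347). Psmd9, another base chaperone, was at 6.55 and 8.11 RPKM in the WT libraries, 6.16 and 6.96 in the Cdc42+/- libraries and 8.76 and 9.72 in the Cdc42-/- libraries (0.30, adjusted p 0.278). Psmg1 was at 21.7 and 17.2 RPKM in the WT libraries, 18.3 and 18.5 in the Cdc42+/- libraries and 18.8 and 32.8 in the Cdc42-/- libraries, so that its sign rested on replicate 2 (0.35, and -0.036 without it). Its partner Psmg2 was at 22.5 and 27.4 RPKM in the WT libraries, 20.3 and 25.2 in the Cdc42+/- libraries and 23.3 and 36.7 in the Cdc42-/- libraries (0.23, adjusted p 0.556, and -0.09 without replicate 2).

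The 2 genes that match by name went in opposite directions. Psme2b (chr11:48945354-48946190), the copy of Psme2, was at 15.4 and 22.2 RPKM in the WT libraries, 17.3 and 16.2 in the Cdc42+/- libraries and 9.39 and 10.2 in the Cdc42-/- libraries, and it fell (-0.85, SE 0.19, limma adjusted p 0.0390). This is the only member that fell. Reads can be shared with Psme2, and Psme2b also shares an exon on the same strand with 9930111J21Rik1, at 35.5 and 35.9 RPKM in the WT libraries and 27.3 and 22.1 in those of Cdc42-/-, so its level is uncertain. Its call was lost in 8 of the 14 alternatives. Psmc3ip was at 2.65 and 3.36 RPKM in the WT libraries, 2.95 and 3.58 in the Cdc42+/- libraries and 4.47 and 7.55 in the Cdc42-/- libraries (0.78, SE 0.27, adjusted p 0.116, and 0.45 without replicate 2).

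Set against Cdc42+/-, the same Cdc42-/- libraries are used again, so the values are given beside those above and are no independent repeat. Here 8 of 49 members rose and 0 fell, against 8.22% of all tested genes called with 4.68% rising and 3.54% falling, and the median over the members was 0.40 (all genes: -0.01). They are the core subunits Psmb2, Psmb3 and Psmb5 and the 19S subunits Psmd1, Psmd3, Psmd7, Psmd13 and Psmd14. Both Cdc42-/- libraries were above both Cdc42+/- libraries for 38 of 49 members and 28 of 31 standard subunits (28.6% of all genes). Both were below for 2 of 49 members (30.4% of all genes). The 4 genes past the threshold in both comparisons are Psmd1, Psmd3, Psmd7 and Psmd13.

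Psmb5 had the smallest adjusted p among the core subunits in this comparison (0.74, SE 0.13, adjusted p 0.0257, against 0.49 from WT). Psmb2 differed by 0.80 (SE 0.17, adjusted p 0.0422). Psmb3, a structural beta subunit, was at 129 and 131 RPKM in the WT libraries, 116 and 117 in the Cdc42+/- libraries and 159 and 182 in the Cdc42-/- libraries (0.54 from Cdc42+/-, adjusted p 0.0353). Psmd14, the deubiquitinase that cuts the ubiquitin chain off the substrate, was at 55.4 and 58.7 RPKM in the WT libraries, 50.0 and 50.5 in the Cdc42+/- libraries and 71.1 and 84.8 in the Cdc42-/- libraries (0.62 from Cdc42+/-, SE 0.12, adjusted p 0.0324). In all 4 genes both Cdc42+/- libraries were below both of WT, and both Cdc42-/- libraries were above. The immunoproteasome subunits differed from Cdc42+/- by 0.26 to 0.30, with 0 of 3 past the threshold. Of these, 2 (Psmb8 and Psmb9) had an unadjusted p below 0.05 (27.1% of all genes), and all 3 had both Cdc42-/- libraries above both Cdc42+/- libraries (28.6% of all genes). Without Cdc42-/- replicate 2, 10 members rose, Psmb9 among them, and 1 fell (7.40% of all genes rose), and without replicate 1, 34 rose (19.3%). With only these 2 genotypes in the fit, or without any 1 WT or Cdc42+/- library, 0 members passed, where 0.0% (without a Cdc42+/- library) to 2.28% of all genes did. In these fits 13 to 24 members and 13.4% to 22.9% of all genes had an unadjusted p below 0.05.

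The comparison of Cdc42+/- with WT asked whether loss of 1 allele is enough to alter these genes. None of the 49 members passed in limma, where 0.0% of all tested genes did, and voom on the recovered reads also called 0 members. An unadjusted p below 0.05 was found for 1 member (Psmb10) and for 4.32% of all genes. The member count was 8 without either Cdc42-/- library or with only the compared genotypes in the fit (10.6% to 10.8% of all genes), and 5 with array weights (10.6%). Fitted levels were lower for 36 members and higher for 13, with a median of -0.06 (all genes: 0.03), and 13 of the 14 standard core subunits were among the lower. Libraries did not overlap for 14 members as lower and 3 as higher, against 17.0% and 26.2% of all genes. The 3 immunoproteasome subunits were each below both WT libraries in both Cdc42+/- libraries, with log2 differences of -0.32 (Psmb10, SE 0.12), -0.25 (Psmb8, SE 0.12) and -0.20 (Psmb9, SE 0.11) and an adjusted p of 0.999 each. Psma2, the most abundant standard subunit, was at 139 and 170 RPKM in the WT libraries, 139 and 125 in the Cdc42+/- libraries and 159 and 209 in the Cdc42-/- libraries (-0.22 between Cdc42+/- and WT, adjusted p 0.999). Of the 17 subunits of the 19S particle, 7 were higher and 10 lower, with a median of -0.03. Both Cdc42+/- libraries lay below both of WT for 5 of them and above for 1, Psmd13 (0.26, SE 0.11, adjusted p 0.999). The authors' deposited table has none of the 49 members past 0.05 here, with 2.28% of 14608 genes past it, 1.72% as higher. In that table, from a test that no header names, the adjusted p was 0.0773 for Psmb10, 0.101 for Psmb8 and 0.286 for Psmb9.

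Other genes of the pathway were counted from lists by role. Of 22 proteasome partners (ubiquitin genes, shuttles, deubiquitinases and the Vcp complex), 2 (9.09%) rose and 0 fell in Cdc42-/- against WT, beside 6.86% of all genes rising, with a median of 0.25 (all genes: 0.01). Uchl5, a deubiquitinase of the 19S base, was at 13.6 and 13.2 RPKM in the WT libraries, 13.4 and 15.1 in the Cdc42+/- libraries and 22.8 and 31.1 in the Cdc42-/- libraries (0.94, SE 0.17, adjusted p 0.0218). It also rose against Cdc42+/- (0.86, adjusted p 0.0355), where 1 of 22 (4.55%) rose beside 4.68% of all genes. The median of the 22 in that comparison was 0.20 with all 6 libraries (all genes: -0.01). It was 0.10 without Cdc42-/- replicate 2 (all genes: -0.02) and 0.36 without replicate 1 (all genes: -0.0036). Nploc4, a cofactor of Vcp, was at 16.3 and 15.8 RPKM in the WT libraries, 17.5 and 17.9 in the Cdc42+/- libraries and 23.9 and 23.3 in the Cdc42-/- libraries (0.53, adjusted p 0.0317). Without Cdc42-/- replicate 2 both kept their calls against WT (Uchl5 0.73, adjusted p 0.0117; Nploc4 0.55, adjusted p 0.0201), and Uba1 also rose, which makes 3 of 22, where 10.3% of all genes rose. With Cdc42-/- replicate 1 left out instead, 12 of 22 rose, where 20.8% of all genes rose. Pomp, which helps to assemble the core, was at 90.7 and 90.9 RPKM in the WT libraries and 99.2 and 159 in those of Cdc42-/- (0.46, adjusted p 0.214, and 0.13 without replicate 2).

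Of 12 regulators of proteasome genes, 0 passed in any comparison, and 2 reached an unadjusted p below 0.05 when Cdc42-/- was set against WT (29.3% of all genes). Without Cdc42-/- replicate 2, 1 of 12 (Stat3) rose against WT, where 10.3% of all genes did, and without replicate 1, 5 rose and 1 fell, where 20.8% of all genes rose. Nfe2l1, which encodes Nrf1, the factor that raises proteasome genes when proteasome activity is short, was at 21.1 and 20.7 RPKM in the WT libraries and 21.4 and 20.2 in those of Cdc42-/- (-0.01, adjusted p 0.973, and 0.03 without replicate 2). Nfya, a subunit of NF-Y, was at 19.2 and 19.3 RPKM in the WT libraries, 21.1 and 23.1 in the Cdc42+/- libraries and 25.3 and 28.4 in the Cdc42-/- libraries, which do not overlap (0.46, adjusted p 0.0587). Mafg, a small Maf protein, had the largest difference of the list, at 6.80 and 7.07 RPKM in the WT libraries, 9.28 and 9.58 in the Cdc42+/- libraries and 9.73 and 13.4 in the Cdc42-/- libraries (0.65, adjusted p 0.0693). Of 14 interferon and MHC class I genes, 0 passed in any comparison, and 0 reached an unadjusted p below 0.05 when Cdc42-/- was set against WT (29.3% of all genes). The count changed when either Cdc42-/- library was left out. Without replicate 2, 5 of 14 (Irf1, Irf2, Tap1, Tap2 and Tapbp) rose and 1 (B2m) fell against WT, where 10.3% of all genes rose. Against Cdc42+/-, 6 of 14 then rose, where 7.40% of all genes did. Without replicate 1, 3 rose and 3 fell against WT, where 20.8% of all genes rose, and 2 rose and 2 fell against Cdc42+/-, where 19.3% rose. Nlrc5, a transactivator of MHC class I genes, had the largest difference with all 6 libraries, at 113 and 102 RPKM in the WT libraries, 104 and 101 in the Cdc42+/- libraries and 103 and 62.1 in the Cdc42-/- libraries (-0.42, adjusted p 0.271, and -0.06, adjusted p 0.706, without replicate 2). Tap1, the peptide transporter next to Psmb9, was at 165 and 155 RPKM in the WT libraries, 159 and 153 in the Cdc42+/- libraries and 218 and 168 in the Cdc42-/- libraries (0.26, limma adjusted p 0.275, and 0.45 without replicate 2). Cdc42-/- replicate 1 was highest, as for Psmb9 and Psmb8. Tap1 and Psmb9 share exon sequence on opposite strands and have similar levels. With the strand setting not given, reads can be shared between them.

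Markers of other properties moved with the same libraries. All 20 proliferation markers rose in Cdc42-/- against WT, where 6.86% of all genes did, and all 20 rose without replicate 2 (10.3%). Summed they came to 335 and 328 RPKM in the WT libraries, 522 and 478 in the Cdc42+/- libraries and 1230 and 1768 in the Cdc42-/- libraries. In Cdc42+/- against WT, 0 of the 20 passed (smallest limma adjusted p 0.206), where 0.0% of all genes did. Both Cdc42+/- libraries were above both of WT for all 20 (26.2% of all genes), and 12 had an unadjusted p below 0.05 (4.32%). The list of 10 Treg markers also holds general T cell genes, and its most abundant member in WT is Cd3g (417 RPKM). They summed to 2104 and 2037 RPKM in the WT libraries, 2064 and 1936 in the Cdc42+/- libraries and 1618 and 1278 in the Cdc42-/- libraries. In Cdc42-/- against WT, 9 were lower and 1 higher, and 5 fell, where 4.57% of all genes did. Erythroid markers summed to 0.649 to 4.29 RPKM in WT and Cdc42+/- and to 20.9 and 162 RPKM in Cdc42-/-. Of 7 CD8 and NK markers, summed levels were 57.9 and 54.9 RPKM in Cdc42-/- and 26.2 to 31.1 RPKM in the other 4 libraries. Nkg7 weighs most in the WT sum, with a WT mean of 18.8 RPKM beside a median of 0.686 RPKM over the 7. Of the 6 tested, 4 were higher and 2 lower in Cdc42-/- than in WT, and 1 (Nkg7) rose, where 6.86% of all genes did. The part of proliferation and of myeloid, erythroid and CD8 or NK RNA in the difference in standard subunits was not tested.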

How the data were processed

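RNA was measured in 6 libraries of sorted splenic Treg cells, grouped by the genotype and number in the sample titles. The authors deposited 2 tables of 14608 genes, and 0 columns were of unknown sample. The submitters' processing notes name TopHat and mm10, with no role or version; the counting tool, annotation, strand setting and filters are not given in the sources used here. Per the file headers no unit is stated for the library columns, and the deposited values are RPKM, since each converts to whole reads given a gene length and a library total (100% of values within 0.05 reads). The deposited group means are a signal, reads over size factors. The authors' deposited fold change, log2 fold change, p-value and adjusted p-value come from a test that no header names.

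Reads and lengths were recovered from these values and used for depth and for voom. The test was limma 3.58.1 (R 4.3.3) on log2(RPKM + 1), with a mean-variance trend, 6 libraries in 1 fit (3 residual degrees of freedom), a minimum mean of 0.5 RPKM and Benjamini-Hochberg adjustment over 12233 genes at 0.05. Fold changes on this scale understate those of low genes. The steps were tested on simulated data. Members and lists were chosen with earlier results of these data known. Values in every library are given for Psmb5 to Psmb10, for members past the threshold, and for the member with the largest difference in each group of members; Psma3, Psma5, Psmb1, Psmc6, Psmd4, Psmd5, Psme1, Psme2, Psmg1, Pomp, Nfe2l1, Nfya, Mafg, Nlrc5, Tap1, Nkg7 and the genes named only without a Cdc42-/- library were added after their values were seen where this rule did not name them. The list of alpha subunits held Psma8, not analysed here. Alternatives were other pseudocounts, filters, scalings and fits, and each library left out. Where 1 library of a genotype is left out, the other is assumed to vary like the other groups. Whether a genotype's libraries come from separate mice is stated only by the design text. Of 49 members, 15 share an exon with another GENCODE vM21 gene (4 on the same strand).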

Additional observations from a re-analysis of the deposited data

How the results depend on the processing

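Counts of calls depended on which libraries shared the fit. With only the compared genotypes in the fit, 60 genes passed in Cdc42+/- against WT, 536 in Cdc42-/- against WT (1 member) and 276 in Cdc42-/- against Cdc42+/- (0 members). Array weights gave 88 genes in the first comparison and 885 (3 members) in the second, and voom gave 1 gene in the first. The cause of these shifts was not tested. Upper-quartile scaling lowered the members' median in Cdc42-/- against WT to 0.27. With 1 library left out, the genes past the threshold ranged from 0 to 96, from 259 to 4436 and from 0 to 4264 in the 3 comparisons. The members past it ranged from 0 to 32 in Cdc42-/- against WT and from 0 to 34 in Cdc42-/- against Cdc42+/-. Their medians ranged from -0.13 to -0.01, from 0.21 to 0.50 and from 0.27 to 0.51. Samples with the same replicate number deviated together with r of 0.02, 0.20 and -0.03 across 12233 genes. With 2 libraries a genotype, these values cannot tell whether samples of the same number were paired. A replicate block left 5 members in Cdc42-/- against WT (9.35% of all genes) and 6 in Cdc42-/- against Cdc42+/- (6.61%). Of 53 genes named with a fold change or call, 24, 15 and 7 changed sign under some alternative in the 3 comparisons, 0 of them past the threshold with all 6 libraries. With 1 library left out, Cdc42+/- against WT ranged from -0.071 to 0.0086 for Cdc42, from -0.069 to 0.16 for Irf2, from -0.24 to 0.075 for Nkg7, from -0.14 to 0.0072 for Nlrc5, from -0.047 to 0.082 for Psma3, from -0.099 to 0.092 for Psma5, from -0.11 to 0.040 for Psmb1, from -0.34 to 0.0017 for Psmb4, from -0.30 to 0.074 for Psmb6, from -0.31 to 0.094 for Psmb7, from -0.037 to 0.22 for Psmc3ip, from -0.015 to 0.13 for Psmc4, from -0.061 to 0.10 for Psmd3, from -0.16 to 0.25 for Psmd5, from -0.085 to 0.022 for Psmd7, from -0.27 to 0.00055 for Psmd9, from -0.14 to 0.012 for Psme2, from -0.39 to 0.12 for Psme2b, from -0.037 to 0.16 for Psme4, from -0.22 to 0.095 for Psmg1, from -0.28 to 0.020 for Psmg2, from -0.50 to 0.26 for Psmg3, from -0.15 to 0.070 for Stat3 and from -0.078 to 0.011 for Tap1. Cdc42-/- against WT ranged from -0.42 to 0.081 for Cdc42, from -0.14 to 0.53 for Irf2, from -0.046 to 0.032 for Nfe2l1, from -0.023 to 0.45 for Psma3, from -0.12 to 0.078 for Psmb10, from -0.024 to 0.32 for Psmb4, from -0.039 to 0.34 for Psmb6, from -0.028 to 0.13 for Psmb8, from -0.017 to 0.14 for Psmb9, from -0.016 to 0.22 for Psmc6, from -0.10 to 0.26 for Psmd4, from -0.024 to 0.015 for Psme1, from -0.036 to 0.73 for Psmg1, from -0.088 to 0.55 for Psmg2 and from -0.16 to 0.32 for Tap2. Cdc42-/- against Cdc42+/- ranged from -0.39 to 0.11 for Cdc42, from -0.19 to 0.48 for Irf2, from -0.71 to 0.0064 for Nlrc5, from -0.0065 to 0.67 for Pomp, from -0.041 to 0.43 for Psma3, from -0.069 to 0.29 for Psmd4 and from -0.072 to 0.13 for Psmf1. Upper-quartile scaling gave -0.0091 for Psmd3 (Cdc42+/- against WT), -0.013 for Psma3 (Cdc42+/- against WT), -0.032 for Psmb8 (Cdc42-/- against WT), -0.024 for Psmb9 (Cdc42-/- against WT), -0.0045 for Psmd4 (Cdc42-/- against WT), -0.0035 for Tap2 (Cdc42-/- against WT) and -0.022 for Psmf1 (Cdc42-/- against Cdc42+/-). Over these genes and all alternatives, 66 of 741 values in Cdc42-/- against WT fell below the threshold and 36 came to pass it. The ratios of paired subunits moved by less than the spread between replicates with a pseudocount of 0.1 or of 1, the latter chosen after seeing the data.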
